A study of Mus musculus with 19 samples.

Results

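Mirtrons are microRNAs cut from very short introns. The spliced intron is debranched and folds into a hairpin, so the splicing machinery does the work that the nuclease Drosha does for most microRNAs, and Dicer then releases the mature arms. Mirtrons have been described in the mammalian brain, and they serve as a readout of a route into the microRNA pathway that bypasses Drosha. The members described here are the rows named miR-702, miR-877, miR-1224, miR-1981, miR-1982 and miR-3102 (the mouse prefix mmu- is left out of names), both arms, matched by name and not by their values. They came to 12 of the 1148 microRNA rows in each count file. Of these, 10 passed the filter on low counts and were tested among 509 microRNAs. The other 2, miR-1982-5p and miR-3102-5p, had 5 reads each over all 19 libraries and never more than 1 read in a library.

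The small RNA libraries came from hippocampal CA1 tissue dissected under a microscope, and all mice were C57B/6JRj with the WT genotype. The groups were 6 libraries from mice of 20 months given SAHA (aged SAHA), 5 from mice of 20 months given vehicle (aged vehicle) and 8 from mice of 3 months given vehicle (young vehicle). SAHA, also called vorinostat, inhibits histone deacetylases and was taken orally in water that held 0.67 g of the drug and 18 g of cyclodextrin per L. The vehicle of the other groups was water with the same 18 g of cyclodextrin per L. The aged groups were treated for 4 weeks, and the labels give neither the sex of the mice nor whether each library came from a single animal, so p-values measure the spread between these libraries. Total counts ran from 4211365 to 5410804 in the aged SAHA libraries, from 4642434 to 5249168 in those of aged vehicle and from 3585489 to 6808281 in those of young vehicle. The tissue label was checked with 4 neuronal microRNAs (miR-124-3p, miR-9-5p, miR-128-3p and miR-138-5p), which together held 66818 to 87947 CPM (counts scaled to depth, with library sizes adjusted by the trimmed mean of M values) over the 19 libraries, while the liver microRNA miR-122-5p held at most 1.44 CPM. One library, aged SAHA 1, stood apart: its median correlation of log2 CPM with the other aged SAHA libraries was 0.989, against 0.992 to 0.996 for the other 18 libraries with their own groups.

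The hairpins of these microRNAs are printed first, because their position is what makes them mirtrons. Each is the RefSeq hairpin (build GRCm38), written 5′ to 3′ in RNA letters with the annotated mature arms in capitals.
Mir702: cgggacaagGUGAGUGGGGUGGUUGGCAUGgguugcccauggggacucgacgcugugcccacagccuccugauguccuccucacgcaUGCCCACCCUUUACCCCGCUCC
Mir877: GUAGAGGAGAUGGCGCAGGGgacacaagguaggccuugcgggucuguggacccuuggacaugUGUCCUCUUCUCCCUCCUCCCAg
Mir1224: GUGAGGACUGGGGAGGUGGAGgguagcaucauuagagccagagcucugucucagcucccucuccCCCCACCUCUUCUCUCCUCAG
Mir1981: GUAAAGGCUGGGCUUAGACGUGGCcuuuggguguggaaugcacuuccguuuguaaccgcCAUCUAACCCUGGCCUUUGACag
Mir1982: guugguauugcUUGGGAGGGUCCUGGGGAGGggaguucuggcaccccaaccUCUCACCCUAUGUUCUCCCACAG

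The sequences open with the gu of a splice donor and close with the ag of an acceptor, except Mir702, whose RefSeq hairpin starts 9 bases upstream of the intron and stops 2 bases before its end. Set against the GENCODE annotation of the same build, 4 of these 5 RefSeq hairpins equal a whole intron of a protein-coding gene to the base. Among the 1005 mouse hairpins of the RefSeq table, 16 do so, which is 1.59%. Mir3102 was placed by its GENCODE gene, which also equals a whole intron. The 6 introns were 74 to 104 bases long, against a median of 1477 bases over 249006 introns of protein-coding genes.

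Mir702 (chr5:136991433-136991541, plus strand) lies across intron 13 of Plod3, which encodes a collagen lysyl hydroxylase. Mir877 (chr17:35960730-35960814, minus strand) is intron 12 of Abcf1, an ABC family protein of translation initiation. Mir1224 (chr16:20604452-20604536, plus strand) is intron 22 of Vwa5b2, and Mir1981 (chr1:184822407-184822488, minus strand) is intron 5 of Marc2, a mitochondrial amidoxime-reducing enzyme. Mir1982 (chr10:80828797-80828870, plus strand) is intron 5 of Oaz1, the antizyme that restrains polyamine synthesis, and Mir3102 (chr7:100882306-100882409, minus strand) is intron 8 of Arhgef17. Intron numbers count from the 5' end of the annotated transcript with the most exons among those that have the intron. A retained-intron transcript is annotated for Oaz1 and for Arhgef17.

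The arms follow the ends of the intron. Of 7 annotated 5p arms, 5 begin at the first intron base, and of 7 annotated 3p arms, 6 end within 2 bases of the last one. The map of mature products within their introns shows the exceptions. miR-1982-5p begins at base 12, and Mir3102 carries an outer and an inner pair of products laid end to end.

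**Figure D1:**
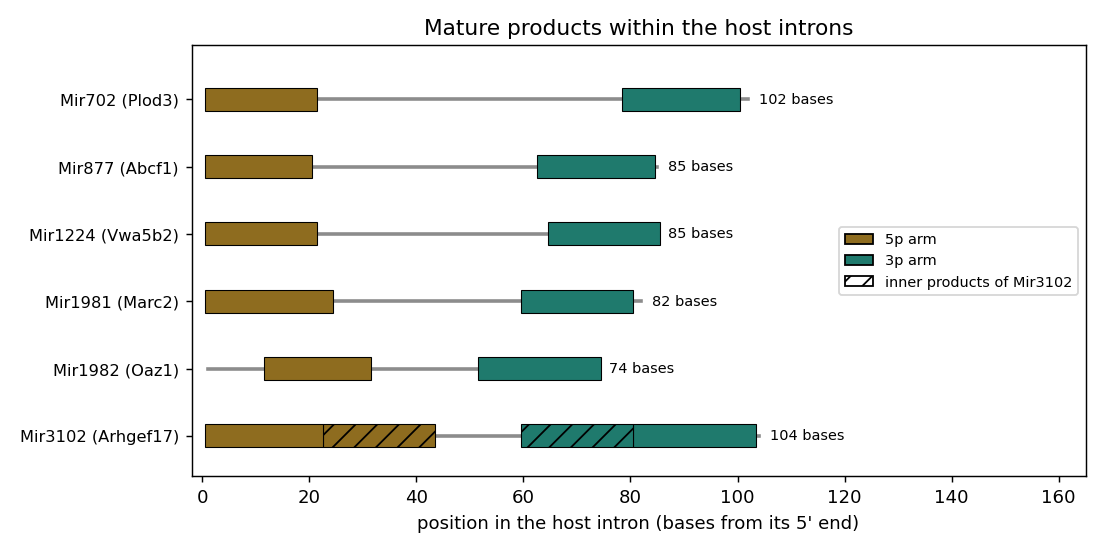
Mature products drawn to scale within the 6 host introns, with the position in bases from the intron's 5' end on the x axis and 1 intron per row (host gene in brackets). Brown boxes are 5p arms and green boxes 3p arms, hatched boxes are the inner products of Mir3102, and the boxes reach the intron ends in most rows.

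The mature sequences are given with the seed, bases 2 to 8 that pair with targets, in capitals. They are shown because the arms differ in base composition and because an arm's seed decides which messenger RNAs it can recognise.
miR-877-5p: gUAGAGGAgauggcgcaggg
miR-877-3p: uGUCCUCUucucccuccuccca
miR-1224-5p: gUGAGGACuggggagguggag
miR-1224-3p: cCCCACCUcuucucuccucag
miR-1981-5p: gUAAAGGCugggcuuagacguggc
miR-1981-3p: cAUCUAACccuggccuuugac
miR-3102-5p: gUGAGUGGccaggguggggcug
miR-3102-5p.2-5p: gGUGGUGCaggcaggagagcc
miR-3102-3p.2-3p: cUCUACUCccugccccagcca
miR-3102-3p: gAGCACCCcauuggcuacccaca
miR-702-5p: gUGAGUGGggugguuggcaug
miR-702-3p: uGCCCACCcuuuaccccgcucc

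The 5p arms were rich in G, with a median of 57.1% G, against 31.8% over the 697 mouse 5p arms of the RefSeq table. The 3p arms were rich in C and U, with a median of 76.2%, against 59.1% over 709 mouse 3p arms. A single seed, UGAGUGG, was shared, by miR-702-5p and miR-3102-5p, and no other mouse mature name of the table held it. The remaining arms of these hairpins had seeds found in no other name of the table. RNAfold gave the 5 printed hairpins minimum free energies of -47.4 kcal/mol (Mir702) to -26.8 kcal/mol (Mir1982). Of the 12 rows, 11 matched a RefSeq mature name. The row miR-702 carries no arm in its name, so its arm is not stated here.

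All 10 tested mirtron products were of middling to low abundance, and together they held 248 ± 12.7 CPM in aged SAHA, 257 ± 10.1 CPM in aged vehicle and 270 ± 19.8 CPM in young vehicle libraries (mean ± SD, n = 6, 5 and 8). A read was counted once whatever its length, so levels were not scaled by length. Over the 19 libraries miR-1981-3p was the most abundant with 50.8 ± 4.85 CPM (SD, n = 19), rank 250 of 509, and miR-1224-5p followed with 45.2 ± 7.70 CPM. miR-702 held 33.2 ± 3.16 CPM, miR-1981-5p 31.0 ± 3.88 CPM and miR-3102-3p 30.4 ± 6.13 CPM. These 3 were not separated: miR-702 exceeded miR-1981-5p in 12 of 19 libraries, and miR-1981-5p exceeded miR-3102-3p in 10.

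Both products of Mir877 held similar levels, 24.1 ± 4.20 CPM for miR-877-5p and 21.8 ± 2.30 CPM for miR-877-3p (SD, n = 19), and the 5p arm had more CPM in 13 of 19 libraries. The inner 3p product of Mir3102, miR-3102-3p.2-3p, held 14.8 ± 3.36 CPM, less than miR-877-3p in all 19 libraries. miR-1224-3p held 6.24 ± 1.94 CPM and miR-3102-5p.2-5p 2.13 ± 0.610 CPM, at rank 479 of 509. Median counts per library were 268 for miR-1981-3p, 30 for miR-1224-3p and 12 for miR-3102-5p.2-5p, so the last values carry the most counting error. Reads were counted without molecular identifiers, and a read is not shown to be an independent molecule.

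**Figure D2:**
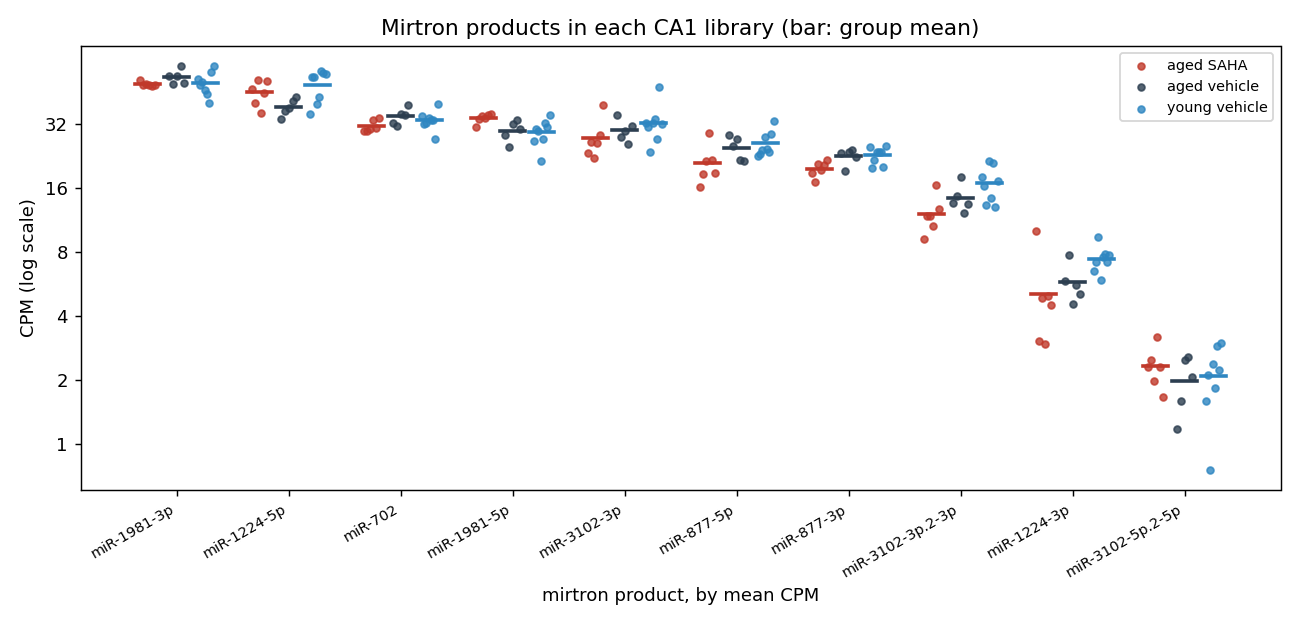
CPM of the 10 tested mirtron products on a log axis, 1 point per library and a bar at each group mean, ordered by mean CPM. The products span 50.8 to 2.13 CPM on average, and the groups overlap for each of the 10.

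In 3 of the 4 hairpins with both arms tested, the same arm was higher in all 19 libraries. For Mir1224 the 5p arm exceeded the 3p arm in all 19 libraries, with a mean log2 ratio of 5p to 3p counts of 2.89 ± 0.43 (SD, n = 19, 0.5 added to each count). For Mir1981 the 3p arm exceeded the 5p arm in all 19 libraries (-0.72 ± 0.21), as it did for the inner pair of Mir3102 (-2.76 ± 0.54). Mir877 had near equal arms (0.13 ± 0.23), and which arm was higher varied between libraries. On the outer pair of Mir3102, the product of the intron's 3' end, miR-3102-3p, had 2990 reads in all, while the product of its 5' end, miR-3102-5p, had 5. Over the 153 hairpins with both arms tested, the median size of the log2 ratio, whichever arm was higher, was 3.10, and all 4 tested mirtron pairs were less one-sided than that on average. A pair enters only if both arms pass the filter on low counts, which limits how one-sided a pair of low abundance can be. The mirtron arms are not abundant, so no conclusion on their balance is drawn from this. The comparison also does not cover the outer pair of Mir3102 or Mir1982, whose 5p rows, with 5 reads each, did not pass the filter.

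The first comparison asks which mirtron products differed between aged and young mice given vehicle. No member was called by edgeR's quasi-likelihood test at an adjusted p under 0.05 (Benjamini-Hochberg over all 509), where 2.16% of all tested microRNAs were, and 1 member, miR-1224-5p, had an unadjusted p under 0.05, where 15.7% did. DESeq2 and limma-voom also called 0 members. In bulk tissue, fewer cells of a type and less RNA per cell cannot be told apart. The members' median log2 fold change was -0.07, against 0.00 over all 509, and 7 of 10 values were negative, where 50.9% of all were. The groups of libraries overlapped for all 10, where 3.14% of the 509 did not overlap.

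miR-1224-5p held 34.0, 37.2, 38.2, 41.4 and 43.0 CPM in the aged vehicle libraries, and 35.8 to 57.3 CPM with a median of 53.5 in the 8 young vehicle libraries. The groups overlapped at the low end of the young libraries, where young vehicle 1, 4 and 5 held 35.8, 39.9 and 42.9 CPM. The log2 fold change was -0.35 ± 0.12 (SE, adjusted p 0.118 by edgeR), the smallest adjusted p among the members. Its partner miR-1224-3p held 5.87, 7.79, 4.56, 5.58 and 5.08 CPM in aged vehicle, and 5.92 to 9.43 CPM with a median of 7.40 in young vehicle. Its log2 fold change was of similar size but less precise (-0.37 ± 0.22, adjusted p 0.408 by edgeR).

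For the other 8 members the log2 fold changes for age ran from -0.22 ± 0.15 (miR-3102-3p.2-3p) to 0.10 ± 0.09 (miR-1981-3p), with adjusted p of 0.467 to 0.957 by edgeR. miR-702 averaged 34.9 ± 3.11 CPM in aged vehicle and 33.5 ± 3.53 CPM in young vehicle (SD, n = 5 and 8). miR-877-3p averaged 22.6 ± 1.93 CPM in aged vehicle and 22.9 ± 2.06 CPM in young vehicle. These differences are smaller than the SD within either group.

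The SAHA comparison asks the same within aged mice. No member was called here either, where 4.32% of all tested microRNAs were called by edgeR, and 0 members had an unadjusted p under 0.05, where 19.4% did. DESeq2 and limma-voom also called 0 members. The members' median log2 fold change was -0.14, against -0.01 over all 509, with 7 of 10 negative, where 51.3% of all were. The groups overlapped for all 10 members, where 4.91% of the 509 did not overlap. The neuronal marker list moved with the treatment: its summed level was 66818 to 72273 CPM in aged SAHA, against 78870 to 83594 CPM in the aged vehicle libraries and 77919 to 87947 CPM in the young ones, and its part in the mirtron values was not tested.

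The arms of Mir1981 had values on opposite sides of 0. miR-1981-5p held 31.2 to 36.0 CPM with a median of 34.6 in the 6 aged SAHA libraries, and 28.6, 25.0, 31.9, 33.5 and 30.5 CPM in the aged vehicle libraries, a log2 fold change of 0.20 ± 0.10 (SE, adjusted p 0.315 by edgeR). miR-1981-3p held 48.7 to 51.8 CPM with a median of 49.3 in aged SAHA, and 54.0, 49.5, 54.3, 60.04 and 50.001 CPM in aged vehicle (-0.11 ± 0.09, adjusted p 0.58). The aged SAHA libraries sat close together for both arms, and the groups overlapped: for the 5p arm 5 of the 6 lay above all aged vehicle libraries, and for the 3p arm 4 of the 6 lay below them all.

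The arms of Mir1224 likewise lay on either side. miR-1224-5p held 36.2 to 51.6 CPM with a median of 46.0 in aged SAHA, against the 34.0 to 43.0 CPM of aged vehicle (0.22 ± 0.12, adjusted p 0.362 by edgeR). miR-1224-3p held 2.96 to 4.99 CPM in 5 aged SAHA libraries and 10.02 CPM in aged SAHA 1, against 4.56 to 7.79 CPM in aged vehicle (-0.18 ± 0.24, adjusted p 0.72). Without aged SAHA 1 the value for miR-1224-3p was -0.50, with no call.

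Both arms of Mir877 had negative values of similar size. miR-877-5p held 16.2 to 29.0 CPM with a median of 20.3 in aged SAHA, and 28.4, 25.4, 27.4, 21.7 and 21.4 CPM in aged vehicle (-0.24 ± 0.13, adjusted p 0.353 by edgeR). miR-877-3p held 17.2 to 21.8 CPM with a median of 20.0 in aged SAHA, and 23.5, 19.4, 23.6, 24.2 and 22.4 CPM in aged vehicle (-0.19 ± 0.10, adjusted p 0.268 by edgeR). A single aged SAHA library, replicate 4 with 29.0 CPM, lay above the aged vehicle range for the 5p arm. miR-702 averaged 31.4 ± 1.99 CPM in aged SAHA and 34.9 ± 3.11 CPM in aged vehicle (SD, n = 6 and 5), a log2 fold change of -0.15 ± 0.09 (adjusted p 0.388 by edgeR).

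The 3 tested products of the Arhgef17 intron were not called under SAHA. miR-3102-3p held 22.1 to 39.5 CPM with a median of 26.3 in aged SAHA, and 35.6, 28.0, 29.7, 25.9 and 31.4 CPM in aged vehicle (-0.13 ± 0.15, adjusted p 0.698 by edgeR), and its highest aged SAHA library, replicate 6, lay above all aged vehicle libraries. miR-3102-3p.2-3p averaged 12.1 ± 2.46 CPM in aged SAHA and 14.5 ± 2.20 CPM in aged vehicle (SD, n = 6 and 5), a log2 fold change of -0.25 ± 0.16 (adjusted p 0.409). miR-3102-5p.2-5p, with few reads, held 1.66 to 3.17 CPM in aged SAHA, and 1.17, 1.60, 2.49, 2.57 and 2.07 CPM in aged vehicle (0.23 ± 0.28, adjusted p 0.698).

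Aged SAHA against young vehicle sets the treated aged mice beside the young ones, and it shares its libraries with the comparisons above. These groups differ in age and in drug together, so the parts of age and drug cannot be told apart in it. Here 1 member was called by edgeR, where 8.64% of the 509 were called lower and 13.9% in either direction, and 5 of 10 members had an unadjusted p under 0.05, where 32.8% of all did. Of the 10 values 8 were negative, where 55% of all were, and the groups overlapped for all 10, where 3.54% of the 509 did not overlap. The called member, miR-3102-3p.2-3p, is the inner 3p product of the Arhgef17 intron. It held 9.25 to 16.5 CPM with a median of 11.9 in aged SAHA, and 13.0 to 21.6 CPM with a median of 16.9 in young vehicle, with aged vehicle at 13.7, 14.8, 18.0, 12.2 and 13.5 CPM. A single aged SAHA library, replicate 5 with 16.5 CPM, reached into the middle of the young range, and the other 5 lay below all 8 young libraries.

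The difference of miR-3102-3p.2-3p between aged SAHA and young vehicle measured -0.47 ± 0.14 on the log2 scale (SE, adjusted p 0.029 by edgeR). The call ended without young vehicle 4 (adjusted p 0.0548), aged SAHA 1 (0.055), aged SAHA 2 (0.0524) or aged SAHA 4 (0.0654), without both aged SAHA 1 and young vehicle 6 (0.0849), with the 2 groups fitted alone (0.0543) and with limma-voom (0.105). The log2 fold change in these settings was -0.46 to -0.33. limma-voom called miR-1224-3p in its place (-0.81, adjusted p 0.00389), where 83 of the 509 were called in either direction. Over all alternatives the adjusted p of miR-3102-3p.2-3p ran from 0.00943 to 0.105. Its neighbour on the same arm of the hairpin, miR-3102-3p, had -0.24 ± 0.14 (adjusted p 0.223), and miR-3102-5p.2-5p, the other arm of the inner pair, had 0.16 ± 0.25 (adjusted p 0.686).

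Among the members that did not pass, miR-1224-3p had the largest value, -0.55 ± 0.21 (adjusted p 0.0854 by edgeR). It held 2.96 to 10.02 CPM with a median of 4.68 in aged SAHA and 5.92 to 9.43 CPM with a median of 7.40 in young vehicle, and aged SAHA 1 was above all young libraries while the other 5 were below all of them. Without aged SAHA 1 the value was -0.87 with an adjusted p of 0.00102 by edgeR, where 9.09% of 506 tested microRNAs were called lower. Aged SAHA 1 held the most miR-1224-3p of its group, so leaving it out moves the value toward a call and adds no separate evidence. Both Mir877 arms had negative values again, -0.31 ± 0.12 for miR-877-5p (adjusted p 0.0854) and -0.21 ± 0.09 for miR-877-3p (adjusted p 0.0936). Without aged SAHA 4 the value of miR-877-5p was -0.40 with an adjusted p of 0.019, where 7.47% of the 509 were called lower. Aged SAHA 4 held the most miR-877-5p of its group (29.0 CPM), so leaving it out moves the value toward a call. Of 14 runs with a library left out, this was the only 1 in which miR-877-5p was called. With the arms and numbered copies of each microRNA summed, Mir877 was called lower (-0.26 ± 0.08, adjusted p 0.0318 over 321 summed rows by edgeR, where 11.5% were called lower) and Mir3102 was not (-0.30 ± 0.11, adjusted p 0.0533). The summed row of Mir1982 adds miR-1982.1-3p and miR-1982.2-3p, which hold the same counts, so its value is not used. miR-1981-5p had a positive value of 0.22 ± 0.09 (adjusted p 0.105 by edgeR).

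**Figure D3:**
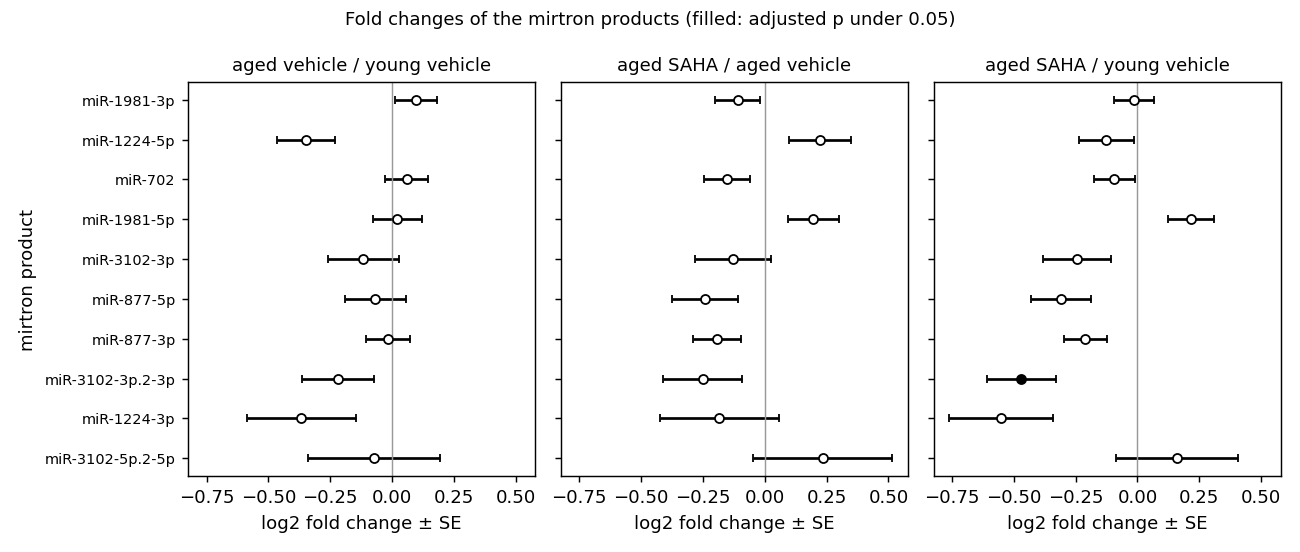
Log2 fold changes with SE of the 10 tested mirtron products in the 3 comparisons, with the edgeR estimate on the x axis and 1 product per row. The filled symbol, miR-3102-3p.2-3p in aged SAHA against young vehicle (-0.47 ± 0.14), is the one that passed the adjusted threshold.

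Because the arms of a hairpin are released from 1 precursor, their ratio within a library needs no scaling between libraries. It was tested with limma over the 153 hairpins with both arms tested, 4 of them mirtrons. For age, 0% of the 153 hairpins were called by limma (13, or 8.5%, had an unadjusted p under 0.05), and the mirtron changes ran from -0.07 ± 0.10 (Mir1981) to 0.18 ± 0.26 (the inner pair of Mir3102). For SAHA, 11.1% of hairpins were called, all 17 of them toward 5p, and none of the 4 mirtrons was among them. With both arms required to reach a CPM of 10 in at least 5 libraries, Mir1981 was called (0.31, adjusted p 0.0422), where 19.4% of the 108 hairpins left were called toward 5p. For aged SAHA against young vehicle 10.5% were called, 15 of 16 toward 5p, and again no mirtron was.

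The mirtron changes under SAHA were 0.31 ± 0.11 for Mir1981 (SE, adjusted p 0.0714 by limma), 0.50 ± 0.21 for Mir1224 (0.136), 0.50 ± 0.27 for the inner pair of Mir3102 (0.25) and -0.06 ± 0.14 for Mir877 (0.817), beside a median of 0.06 over all 153 hairpins. For Mir1981 the log2 ratio was -0.73 to -0.44 with a median of -0.52 in aged SAHA, and -0.92, -0.99, -0.76, -0.84 and -0.71 in aged vehicle. The groups met at a single point, since aged SAHA 1 lay at -0.73, below aged vehicle 5. For Mir1224 the log2 ratio was 3.15 to 3.68 in 5 aged SAHA libraries and 2.23 in aged SAHA 1, and 2.52, 2.24, 3.04, 2.87 and 3.06 in aged vehicle. The 5 lay above all aged vehicle libraries, and aged SAHA 1 lay below them all. For the inner pair of Mir3102 the log2 ratio was -2.86 to -1.70 with a median of -2.37 in aged SAHA, and -3.44, -3.13, -2.81, -2.20 and -2.66 in aged vehicle. Only aged SAHA 4 and aged SAHA 1 lay above all aged vehicle libraries, and this ratio rests on a 5p arm of 12 reads in the median library.

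Aged SAHA 1 also had the highest level of the oligodendrocyte markers miR-219-2-3p and miR-338-3p, 7554 CPM against 3460 to 5180 CPM in the other 5 aged SAHA libraries, and of the microglial markers miR-142-3p and miR-223-3p, 37.2 CPM against 6.88 to 26.6. The part of these markers in its arm ratios was not tested. Without this library, Mir1224 rose toward 5p under SAHA by 0.71 ± 0.16 (adjusted p 0.00403 by limma) and Mir1981 by 0.35 ± 0.11 (0.0426), where 13.7% of the 153 hairpins were called toward 5p. Aged SAHA 1 had the lowest ratio of its group for these hairpins. Leaving it out therefore moves their values toward a call, here and against young vehicle, and adds no separate evidence. In that setting the groups did not overlap for either hairpin. Aged SAHA 1 alone had made them overlap, so this follows from leaving it out and is not a test. Of all hairpins, 12.4% then had all aged SAHA libraries above all aged vehicle libraries, a share not selected in that way. Against young vehicle, the change of Mir1224 was 0.54 ± 0.19 with all libraries (adjusted p 0.0759) and 0.74 ± 0.14 without aged SAHA 1 (0.00155), where 11.1% were called toward 5p. For Mir1981 these values were 0.24 ± 0.10 (0.13) and 0.28 ± 0.10 (0.0736). Without young vehicle 6 the change was 0.30 (adjusted p 0.0121 by limma), where 11.1% were called toward 5p. Of 14 runs with a library left out, this was the only 1 in which Mir1981 was called. Young vehicle 6 had the highest young ratio, -0.31, so leaving it out moves the value toward a call and adds no separate evidence. The same limit holds without both aged SAHA 1 and young vehicle 6, where the change of Mir1981 was 0.34 (adjusted p 0.00503) and 16.3% were called toward 5p. For the inner pair of Mir3102 the change against young vehicle was 0.68 ± 0.24 (0.0759). It was called with 5 added to each count (0.60, adjusted p 0.0309 by limma) and with replicate number as a block (0.86, adjusted p 0.0402). Over the 4 alternatives other than leaving out 1 library, 17 to 29 hairpins were called in either direction, with the 29 in the run without aged SAHA 1 and young vehicle 6. The share called toward 5p with 5 added or with the block was not worked out, so these calls of the inner pair are not read further.

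**Figure D4:**
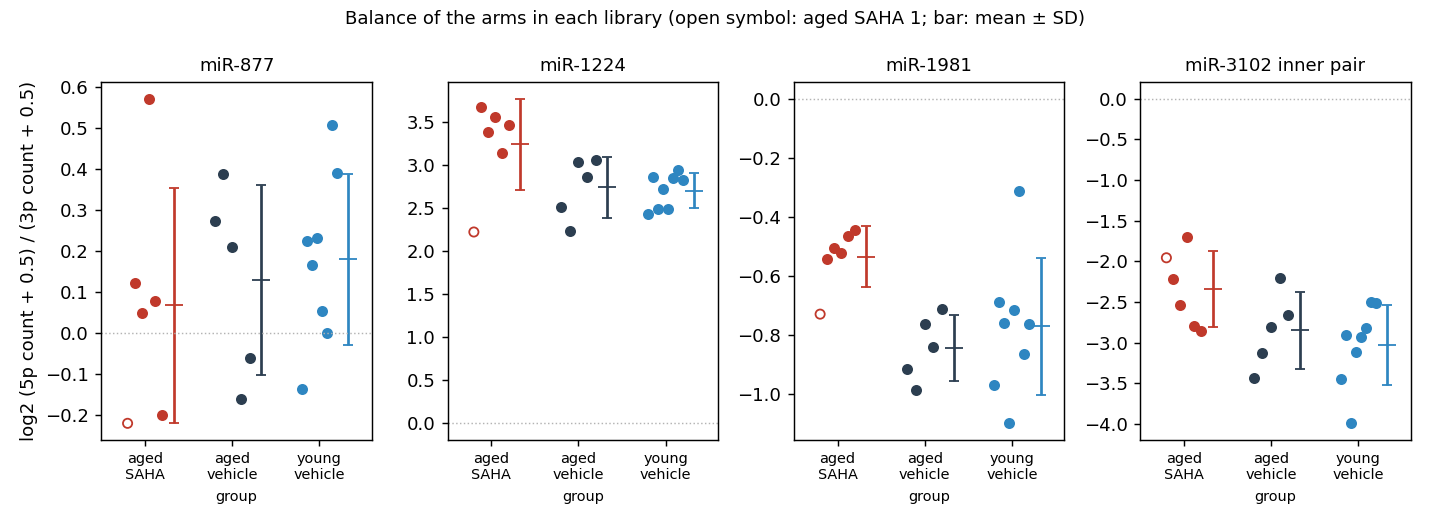
Log2 ratio of 5p to 3p counts in each library for the 4 mirtron hairpins with both arms tested, in 3 groups per panel, with mean ± SD beside the points and aged SAHA 1 as an open symbol. In the panels of Mir1224 and Mir1981 the filled aged SAHA points (3.15 to 3.68 and -0.54 to -0.44) lie above all aged vehicle points, and the open one does not.

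Other microRNAs that do without Drosha were set beside the mirtrons as a list named for its biogenesis: miR-320, with a precursor made directly by transcription, miR-484, likewise, miR-664 and miR-1839, from small nucleolar RNAs, and miR-1983, from a transfer RNA. Of their 8 rows, 7 were tested. For age none was called, where 2.16% of all 509 were, with a median log2 fold change of 0.01. For SAHA, miR-1839-5p was called higher (0.34 ± 0.09, adjusted p 0.0267 by edgeR) and miR-1983 lower (-0.33 ± 0.08, adjusted p 0.0229), with a list median of -0.04. Of all 509, 4.32% were called in that comparison. In aged SAHA against young vehicle, 2 were called higher and 2 lower, where 13.9% of all 509 were called in either direction and 8.64% lower. The list median was 0.03, beside -0.17 for the mirtrons and -0.03 for all 509. The difference between the lists was not tested.

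As a description of likeness, each profile of log2 CPM was standardised over the 19 libraries and the mean absolute difference to each of 499 tested microRNAs outside the mirtrons was taken, in SD units. Nearest to miR-1981-3p were miR-335-5p (0.540), miR-543-3p (0.583) and miR-346-5p (0.586). Nearest to miR-1224-5p were miR-129-2-3p (0.523), miR-383-5p (0.567) and miR-181c-3p (0.608). For miR-702 they were miR-3077-3p (0.6005), miR-676-5p (0.743) and miR-344f-3p (0.748). The median difference over all 499 was 1.08 to 1.12 for these 3 members.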

How the data were processed

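The deposited values are counts, 1 whole-number table of microRNA names per library. The submitters' processing notes name CASAVA 1.8.2, cutadapt, STAR, HTSeq and build mm10. For reads matching several names, the counting rule was not stated in the sources used here. From the deposited counts, names passing edgeR's filter (minimum count 10, minimum total 15) were tested, 509 of 1148 names. edgeR 4.0.16 in R 4.3.3 fitted all 3 groups together by robust quasi-likelihood with TMM scaling, with no covariate, and p-values were adjusted by Benjamini-Hochberg over the 509 at a threshold of 0.05. The biological coefficient of variation was 0.152. Arm balance was tested with limma 3.58.1 on the log2 ratio of arm counts with 0.5 added. DESeq2 1.42.0, limma-voom, other scalings, filters and left-out libraries were alternatives. Hairpins were folded with RNAfold 2.7.2. Scripts were tested on simulated data. There, edgeR called a 1.25-fold change for 40.3% (age), 32.8% (SAHA) and 55.2% (aged SAHA against young vehicle) of the changed microRNAs. A member without a call may therefore still differ by that much.

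All 12 rows matching the names are accounted for, and those tested are named with values. For likeness, the 3 nearest microRNAs are named for each of the 3 members with the highest mean CPM. The members and lists were chosen with earlier results of these data known. No 2 libraries of a group agreed within sampling noise over 53 pairs (lowest chi-square per degree of freedom 24.7). Same-numbered libraries did not deviate together, so replicate numbers were not used as pairs.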

Additional observations from a re-analysis of the deposited data

Results flagged for a closer look

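Each value here lay farther from its own group than Dixon's 95% critical value allows. Of 42 groups of libraries checked, 6 held such a value, and chance gives about 1 in 20. The checks are not independent, since the arm ratios use the same reads as the CPM values, so the 6 are not 6 separate events. Of these, 4 came from aged SAHA 1. It held miR-1224-3p at 10.0155 CPM, where the nearest aged SAHA library held 4.99 CPM. It held miR-1981-3p at 51.8 CPM, where the nearest held 49.7 CPM. Its log2 ratio of 5p to 3p counts was 2.23 for Mir1224, where the nearest aged SAHA library lay at 3.15, and -0.73 for Mir1981, where the nearest lay at -0.54. The other 2 were both of miR-3102-3p, at 39.5 CPM in aged SAHA 6, with the nearest at 28.4 CPM, and at 47.9 CPM in young vehicle 7, with the nearest at 33.8 CPM.

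Reads were also counted under the names miR-1982.1-3p and miR-1982.2-3p, which the naming rule of the mirtrons leaves out. Each held 361 reads over the 19 libraries, 11 to 30 per library, against 5 reads for miR-1982-5p. The count was the same under both names in every library, so they may be the same reads counted under both names, and the values are not to be added.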

How the results depend on the processing

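For age and SAHA, 0 members were called under every alternative run. Against young vehicle, the member count of 1 was 0 with the 2 groups fitted alone and 0 to 1 with a library left out. Of 336 alternative values with all libraries or the named pair left out, 309 kept their direction and side of the threshold. Counts over all microRNAs for age (11) were 20 with DESeq2, 23 with limma-voom, 19 with the 2 groups alone and 18 without aged SAHA 1 and young vehicle 6. For SAHA (22) they were 39, 46, 9 with arms and copies summed and 37 without those libraries, and 11 to 33 with a library left out. Hairpins called for arm balance for SAHA (17) were 9 to 22 with a library left out and 17 to 25 under the other alternatives, and between aged SAHA and young vehicle (16) 29 without those libraries and 7 to 19 with one left out. The cause was not tested. Log2 fold changes near 0 turned sign. For miR-1981-3p in aged SAHA against young vehicle, -0.01 was 0.00747 with DESeq2's size factors, 0.024 by library size, 0.00594 with DESeq2, 0.018 with the 2 groups alone, 0.016 without the 3 most abundant microRNAs and -0.053 to 0.027 with a library left out. For age, miR-877-3p was 0.016 by library size, 0.023 with limma-voom and -0.044 to 0.048 with a library left out, miR-1981-5p -0.027 to 0.092, and miR-3102-5p.2-5p 0.032 with limma-voom, 0.00253 without the 2 libraries and -0.20 to 0.085 with one left out. The arm change of Mir1224 for age was -0.0061 with 5 added to each count and -0.041 to 0.16 with a library left out, and that of Mir877 -0.11 to 0.023 for age and -0.16 to 0.00165 for SAHA.

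Replicate numbers did not pair the samples: deviations of same-numbered libraries correlated at -0.32 to 0.27 for age, -0.20 to 0.11 for SAHA and -0.11 to 0.31 between aged SAHA and young vehicle, and 0, 0 and 2 libraries correlated best with their own number. With the replicate block the members called were 0, 0 and 1. The arm change of the inner pair of Mir3102 against young vehicle was then 0.86 (adjusted p 0.0402 by limma), and with 5 added to each count it was 0.60 (adjusted p 0.0309). Over the 4 alternatives other than leaving out 1 library, 17 to 29 hairpins were called in that comparison, with the 29 in the run without aged SAHA 1 and young vehicle 6. The share called toward 5p in the 2 settings of the inner pair was not worked out. Under the replicate block, signs turned for miR-1981-3p against young vehicle (0.073) and, for age, for miR-3102-5p.2-5p (0.080), miR-877-5p (0.017), miR-3102-3p (0.043) and the arms of Mir877 (0.00439).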
